A study of Mus musculus with 5 samples.

Results

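The nuclear genes for subunits of the oxidative phosphorylation (OXPHOS) complexes were chosen by gene symbol, from the stems Nduf, Sdh, Uqcr, Cyc1, Cox and Atp5. The rule uses no measured value, but it was chosen with earlier results of these data known. They were 79 of the 38918 features in the table: 37 of complex I, 4 of complex II, 9 of complex III, 11 of complex IV and 18 of complex V. A mean of at least 10 normalised reads over the 5 libraries was reached by 77 of them, which were tested among 9870 genes. The other 2 were both named in complex V by their symbols. Atp5s stood just under the limit, with values of 8.0 and 6.23 in the control libraries and 7.46, 5.19 and 5.78 in the maternal BSp libraries, and Atp5l2, which the annotation calls a pseudogene, was at 0 in every library. The lowest mean above the limit was that of Atp5g2, at 25.9. One row with a pseudogene suffix, Atp5l-ps1, was left out.

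RNA was sequenced from mammary tumours of 20-week-old mice that carry an SV40 transgene, with FVB given as their strain. The promoter that drives the transgene is not given in the sources used here. Dams had been fed either a control diet (2 libraries) or a diet holding 26% broccoli sprouts, BSp (3 libraries, called maternal BSp), through pregnancy and nursing, and their young received nothing further. The labels do not say whether libraries within a group stem from separate litters or animals, so the p-values reflect only how these 5 libraries varied.

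In oxidative phosphorylation, complexes I and II pass electrons from NADH and succinate to ubiquinone, complex III passes them on to cytochrome c, and complex IV hands them to oxygen. Complexes I, III and IV pump protons across the inner mitochondrial membrane, and complex V, the ATP synthase, uses the gradient to make ATP. The mitochondrial genome encodes core subunits of complexes I, III, IV and V, while complex II and all remaining subunits are encoded in the nucleus, so each of those 4 complexes is built from the products of both genomes. A few symbols reach beyond the complex they are named for: the Ndufa4 protein is now assigned to complex IV, Cox7a2l helps to join complexes into supercomplexes, and Atp5s and Atp5sl (Dmac2, a complex I assembly factor) are not subunits of the synthase.

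Nuclear OXPHOS genes are known for promoters that bind nuclear respiratory factor 1 (NRF1), ETS-family factors such as GABP, and YY1. Sequences of 300 bases, 250 before and 50 after the start site, were found for 65 of the 77 tested genes in RefSeq (build GRCm38.p6). The letters GCGCA, any base and then GCGC (NRF1), CCGGAAG (ETS) and AAGATGGCG (YY1) were searched on both strands. The promoters of 3 genes are shown because these genes had low maternal BSp values in the results that follow and yet differ in these letters. Capitals mark the NRF1 letters and the ETS letters, the latter read here on the other strand as CTTCCGG. The Atp5k window lies at chr5:108434350-108434649 (minus strand), with NRF1 letters from base 201 and ETS letters from base 263. That of Cox6a1 lies at chr5:115348909-115349208 (minus strand), with NRF1 letters from bases 89 and 134 and ETS letters from base 235. That of Cox5a lies at chr9:57520982-57521281 (plus strand) and holds none of the 3.
Atp5k promoter: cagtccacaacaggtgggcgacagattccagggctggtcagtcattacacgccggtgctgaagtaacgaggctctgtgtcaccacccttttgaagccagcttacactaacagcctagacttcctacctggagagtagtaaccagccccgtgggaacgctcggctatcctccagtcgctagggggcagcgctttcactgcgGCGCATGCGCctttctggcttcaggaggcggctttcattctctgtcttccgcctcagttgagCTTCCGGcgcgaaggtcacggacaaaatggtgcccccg
Cox6a1 promoter: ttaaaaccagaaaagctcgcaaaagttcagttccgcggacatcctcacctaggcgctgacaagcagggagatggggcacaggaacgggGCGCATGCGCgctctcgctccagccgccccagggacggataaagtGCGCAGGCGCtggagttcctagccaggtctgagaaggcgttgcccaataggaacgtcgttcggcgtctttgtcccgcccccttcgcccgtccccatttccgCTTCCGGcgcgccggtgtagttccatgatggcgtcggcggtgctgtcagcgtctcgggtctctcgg
Cox5a promoter: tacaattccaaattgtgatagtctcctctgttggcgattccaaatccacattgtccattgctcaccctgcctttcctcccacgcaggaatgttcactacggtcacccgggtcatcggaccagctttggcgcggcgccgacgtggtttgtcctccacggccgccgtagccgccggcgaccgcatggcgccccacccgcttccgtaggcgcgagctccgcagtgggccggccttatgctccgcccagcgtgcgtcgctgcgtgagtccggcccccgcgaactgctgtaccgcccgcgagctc
NRF1 letters were found in 16 of the 65 promoters (24.6%), against 4.78% of all 27025 promoters in the RefSeq table and 11.8% of the 7371 promoters of tested genes. ETS letters were in 15 (23.1%, against 9.12% and 20.3%) and YY1 letters in 7 (10.8%, against 1.49% and 3.81%). In complex IV, NRF1 letters were in 1 of 9 promoters, that of Cox6a1. The 5 complex I promoters with YY1 letters made up most of the 7. The median log2 fold change was -0.58 for genes with NRF1 letters and -0.61 for genes without, -0.77 and -0.57 for ETS, and -0.28 and -0.60 for YY1. These matches describe the letters only.

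All values below are normalised reads: the authors brought each library to a total of 1106813, that of control replicate 1, the shallowest library. The recovered depths ran from 1106813 to 61663199 reads, and both controls were shallower than all maternal BSp libraries. All 5 luminal epithelial markers were present in every library, with a summed level of 4035 to 4863 in the control libraries and 4123 to 4997 in maternal BSp. The 5 basal or myoepithelial markers, Krt5, Krt14, Krt17, Trp63 and Acta2, were all lower on average in maternal BSp, with sums of 3171 and 2055 in the control libraries and 1407, 1592 and 258 in maternal BSp, and none was at 0. The 3 macrophage markers in the table summed to 153 and 204 against 210, 238 and 271, and the 3 red cell markers to 439 and 131 against 105, 0.556 and 1076. All 3 macrophage markers overlapped between groups, with log2 fold changes of 0.78 for Cd68, -0.34 for Csf1r and 0.81 for Cd14. In maternal BSp replicate 3, Cd14 alone stood at 207, while Csf1r, at 38.0, lay below both controls. The 4 fibroblast markers summed to 760.0 and 254 against 527, 769 and 204, and among them Pdgfra stood at 27.0 and 19.3 against 49.98, 76.1 and 42.9, above both controls in each maternal BSp library. The other 3, Col1a1, Col1a2 and Dcn, overlapped between groups, with log2 fold changes of 0.07, -0.42 and 1.38. T cell markers summed to 23.4 or less in each library. Markers of muscle and of brown fat, tissues rich in mitochondria, summed to 18.2 or less and to 39 or less in each library. In bulk tumour RNA, fewer cells of a type and less RNA per cell cannot be told apart, and the part of the basal, macrophage, fibroblast and red cell markers in the results below was not tested.

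Most nuclear OXPHOS subunit genes had lower values in maternal BSp tumours, but none passed the test. Of the 77, 65 had a log2 fold change below 0 (84.4%, against 36.8% of all tested genes), and the median was -0.58 on the log2 scale, against 0.21 over all genes. Median-of-ratios scaling, which put the median of all genes at 0.00, gave the members a median of -0.79 with 68 lower. The fold changes ran from -1.88 for Cox5a to 0.86 for Uqcrc2. The values of all 3 maternal BSp libraries lay below both controls for 28 genes (36.4%, against 9.21% of all tested genes) and above both for 2 (against 23.8%), while 47 overlapped. The all-gene shares in this paragraph take no account of transcript length, and shares by length class are given below. Limma called 0 of the 77 genes and 0 of all 9870 (0.0%), and no adjusted p lay below 0.407. Without adjustment, limma gave p under 0.05 for 11 lower genes (14.3%, against 3.14% of all genes) and 0 higher (against 8.01%), and these 11 were among the 28 without overlap. The edgeR quasi-likelihood test on the recovered reads called 0 genes as well, while 971 of all genes (9.84%) had an unadjusted p under 0.05. Of the members, 9 were lower at that limit in edgeR (11.7%, against 5.01% of all genes) and 0 higher (against 4.83%). DESeq2 called 100 genes (1.01%, 0.699% lower and 0.314% higher), none of them a nuclear OXPHOS subunit gene. Limma with array weights, which gave maternal BSp replicate 1 the largest weight, called 699 genes (7.08%, 2.81% lower and 4.28% higher), among them 9 nuclear OXPHOS subunit genes, all lower.

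**Figure D1:**
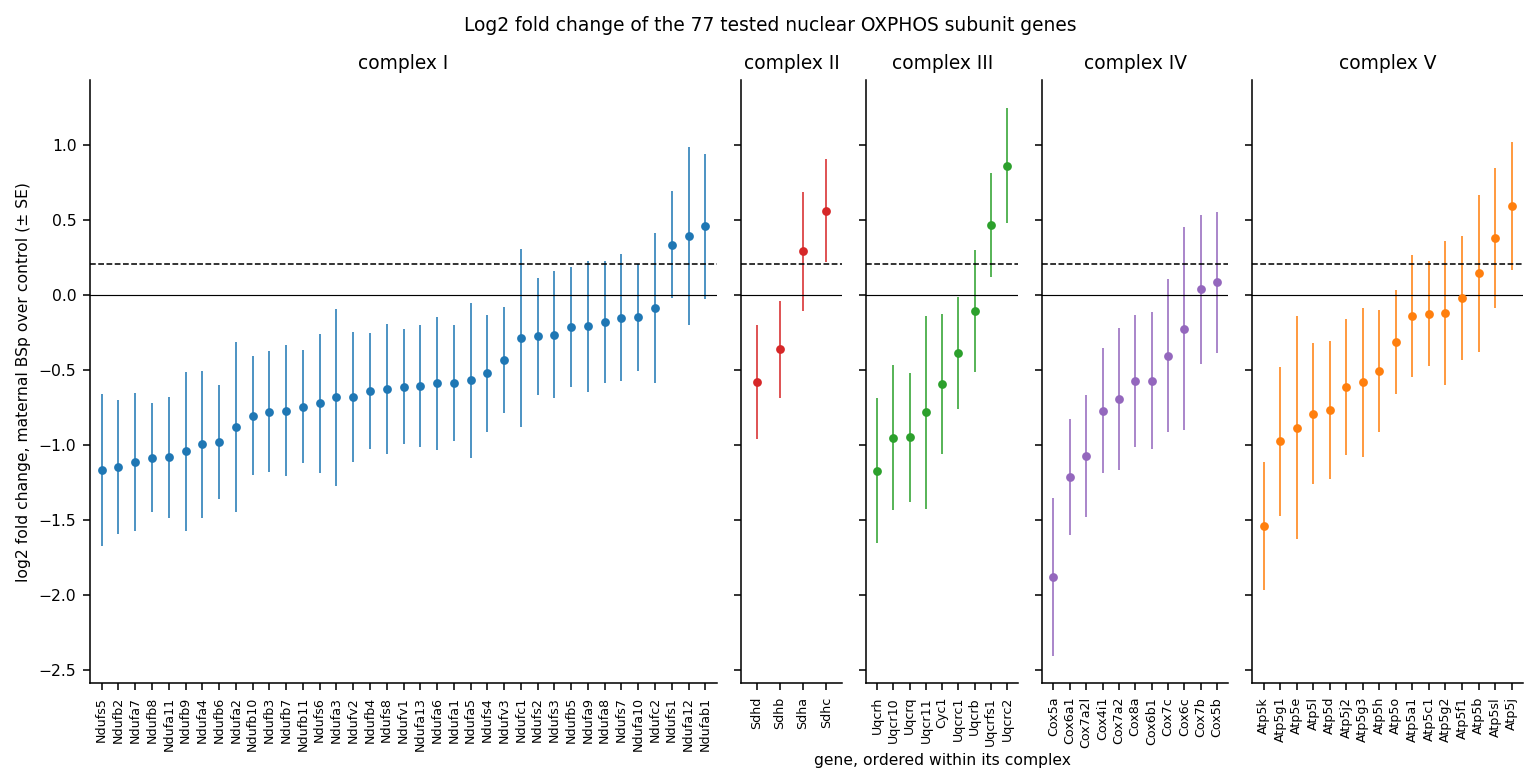
Log2 fold change, maternal BSp relative to control (vertical axis, error bars ± SE from limma, 2 against 3 libraries) for each of the 77 tested genes, ordered within its complex. The solid line is 0 and the dashed line is the median of all tested genes, 0.21. Points lie below 0 for 65 genes.

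The 3 maternal BSp libraries differed among themselves. Maternal BSp replicate 2 held the lowest of the 5 values for 53 of the 77 genes (68.8%, against 11.4% of all tested genes). Maternal BSp replicate 1 held the lowest for 17 (22.1%, against 19.1%). Maternal BSp replicate 3 held the lowest for 2 (2.60%, against 23.5%) and the highest for 34 (against 18.2% of all tested genes). Set against the mean of the controls, 66 genes were lower in maternal BSp replicate 1 (median -0.54 on the log2 scale), 69 in replicate 2 (-1.12) and 37 in replicate 3 (0.03). Of all 9870 tested genes, 4290, 2648 and 4625 were lower in those comparisons, with medians of 0.12, 0.50 and 0.05. In maternal BSp replicate 3, 31 of the 77 genes lay below both controls and 36 above both. Of all 9870 tested genes, 3635 and 4151 did. As a share of all reads, the 77 genes together took 1.87% and 2.05% in the control libraries and 1.24%, 0.991% and 2.00% in maternal BSp replicates 1, 2 and 3. The third maternal BSp library lay within the range of the controls and the other two below it. Without maternal BSp replicate 3, the values of 54 genes lay below both controls without overlap (70.1%, against 14.1% of all tested genes) and the median was -0.81. Without maternal BSp replicate 2 there were 29 such genes (37.7%, against 21.3%) and the median was -0.29.

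**Figure D2:**
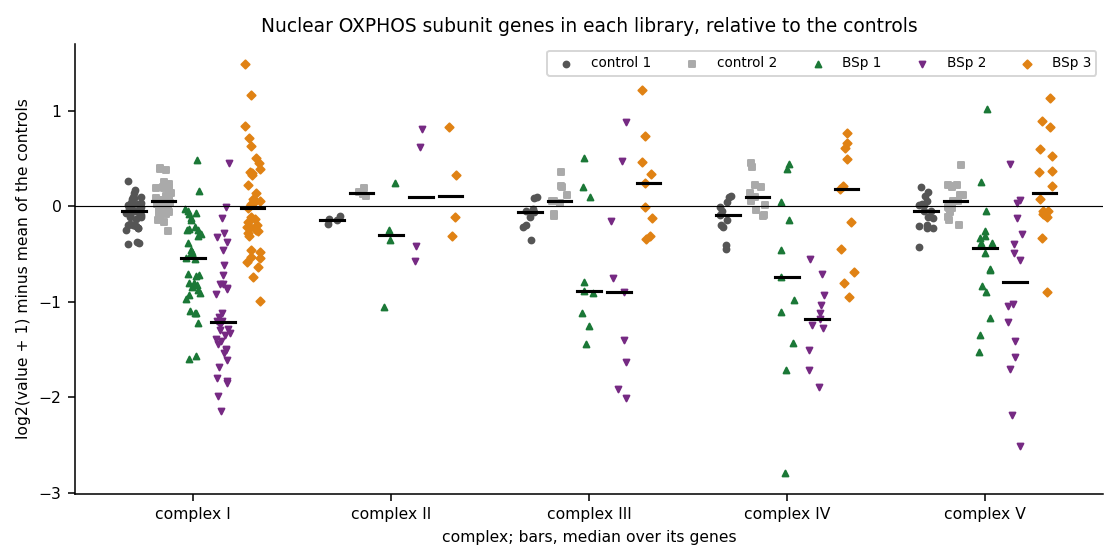
For each gene, log2(value + 1) minus the mean of the 2 controls (vertical axis), by complex and library. Bars are medians over the genes of a complex. In complexes I, III, IV and V the medians of maternal BSp replicates 1 and 2 lie below the controls, while those of maternal BSp replicate 3 lie between -0.02 and 0.24.

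Complex I, the NADH dehydrogenase, had 34 of its 37 genes with lower mean log2 values in maternal BSp (median -0.61), and 15 without overlap (40.5%). Of all tested genes 9.21% were lower without overlap, and of those under 700 bases 31.25%. The 30 accessory subunits, which surround the catalytic core, had a median of -0.66, with 28 lower and 14 without overlap (46.7%). The 7 nuclear core subunits, which carry the flavin and the iron-sulphur clusters, had a median of -0.27, with 6 lower and 1, Ndufv2, without overlap (14.3%). Core transcripts are 758 to 2590 bases long and accessory ones 315 to 2020. The difference between core and accessory genes was not tested, nor was the part of length in it. Ndufb8 (chr19:44548572-44555440, minus strand), an accessory subunit of the membrane arm often used as a marker of assembled complex I, stood at 438 and 574 in the control libraries and at 231, 190 and 300 in maternal BSp. All 3 maternal BSp libraries lay below both controls, and the log2 fold change was -1.08 ± 0.36 (SE, limma adjusted p = 0.407). Ndufa11, a membrane-arm accessory subunit, stood at 327 and 330 against 167, 102 and 219, a log2 fold change of -1.08 ± 0.40 (limma adjusted p = 0.418). Ndufb2, another membrane-arm subunit, stood at 178 and 234 against 93.3, 56.5 and 146 (-1.14 ± 0.44, limma adjusted p = 0.427). For both genes the groups did not overlap and maternal BSp replicate 2 was lowest. The genes Ndufb6, Ndufa7 and Ndufs5 also had an unadjusted p under 0.05 in limma, with log2 fold changes of -0.98, -1.11 and -1.17.

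The highest complex I levels per kb of transcript were those of Ndufa4 (1324 per kb) and Ndufa2 (599 per kb), and the lowest was that of Ndufs1, the largest core subunit (21.7 per kb). Ndufa4 stood at 618 and 1055 normalised reads in the control libraries and 272, 351 and 696 in maternal BSp, where the third library lay between the controls. Ndufa2, an accessory subunit of the matrix arm, stood at 444 and 434 against 265, 110 and 461, so that maternal BSp replicate 3 exceeded both controls. The 3 complex I genes with a log2 fold change above 0 were Ndufab1, the mitochondrial acyl carrier protein (0.46), Ndufa12 (0.39) and Ndufs1 (0.34), and all 3 overlapped between groups.

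Complex II, succinate dehydrogenase, is the one complex made only of nuclear products. Its 4 genes did not share a direction (median -0.03). Their transcripts are 1142 to 3171 bases long, against a median of 758 over the members, and the part of length was not tested. Sdha, the flavoprotein, stood at 79.0 and 97.1 in the control libraries and at 73.3, 154 and 110 in maternal BSp, with overlap (log2 fold change 0.29 ± 0.40). Sdhb, the iron-sulphur subunit, stood at 169 and 220 against 151, 144 and 155 (-0.36 ± 0.32). Sdhc, a membrane anchor, stood at 76.0 and 91.4 against 98.9, 128 and 149 (0.56 ± 0.34), and every maternal BSp library lay above both controls. The second anchor gene, Sdhd, lay the other way, at 240.0 and 276 against 123, 173 and 239 (-0.58 ± 0.38), with maternal BSp replicate 3 just below control replicate 1. Limma adjusted p-values of the 4 genes were 0.537 to 0.790.

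In complex III, the cytochrome bc1 complex, 7 of 9 genes had lower mean log2 values in maternal BSp (median -0.59), 3 of them without overlap. These 3 made up 33.3% of the complex, against 9.21% of all tested genes and 31.25% of those under 700 bases. Uqcrh (chr4:116066965-116075071, minus strand), the hinge protein that sits by cytochrome c1, stood at 648 and 677 in the control libraries and 278, 175 and 524 in maternal BSp (-1.17 ± 0.48, limma adjusted p = 0.439). Uqcrq, a small subunit, stood at 235 and 252 against 129, 78.2 and 197 (-0.95 ± 0.43). In both genes each maternal BSp library lay below both controls, with replicate 3 closest to them. Uqcrc2 (chr7:120635176-120659524, plus strand), a core protein without redox groups, stood at 51.0 and 84.4 against 93.3, 121 and 154. It had the highest fold change of all 77 genes (0.86 ± 0.39, limma adjusted p = 0.452), with every maternal BSp library above both controls. Its partner Uqcrc1 was among the 3 genes lower without overlap. Of the catalytic subunits, the Rieske protein gene Uqcrfs1 had a log2 fold change of 0.47 and cytochrome c1, Cyc1, one of -0.59, both with overlap. By level per kb the complex was led by Uqcrh (841 per kb) and Uqcr11 (568 per kb). Uqcr11 stood at 322 and 281 against 173, 73.9 and 415.

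In complex IV, cytochrome c oxidase, 9 of 11 genes had lower mean log2 values in maternal BSp (median -0.57), 4 of them without overlap. These 4 made up 36.4% of the complex, against 9.21% of all tested genes and 31.25% of those under 700 bases. Cox5a (chr9:57521274-57532426, plus strand), a subunit on the matrix side, had the lowest fold change of all 77 genes. It stood at 641 and 565 in the control libraries and at 85.8, 162 and 310 in maternal BSp, which is 3.68-fold higher in the controls (log2 fold change -1.88 ± 0.53, limma adjusted p = 0.407). Cox6a1 (chr5:115345642-115348981, minus strand), the non-muscle form of subunit VIa, stood at 674 and 767 against 266, 253 and 445 (-1.21 ± 0.39, limma adjusted p = 0.407). Neither gene overlapped between groups, and in both maternal BSp replicate 3 was the highest of its group. The supercomplex factor Cox7a2l stood at 242 and 295 against 80.9, 163 and 153 (-1.07 ± 0.41, limma adjusted p = 0.424). Cox4i1, the main form of the largest nuclear subunit and the highest complex IV gene per kb (1031 per kb), stood at 1072 and 929 against 462, 487 and 891 (-0.77 ± 0.42). Its groups did not overlap, with maternal BSp replicate 3 just below control replicate 2. Cox5b and Cox7b were the 2 genes with fold changes above 0, at 0.09 and 0.04.

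In complex V, the ATP synthase, 13 of 16 tested genes had lower mean log2 values in maternal BSp (median -0.41), 4 of them without overlap. These 4 made up 25.0% of the complex, against 9.21% of all tested genes. The share was 31.25% of all tested genes under 700 bases and 30.1% of those of 700 to under 1200 bases. Atp5k (chr5:108433244-108434448, minus strand), the e subunit of the membrane part, which helps synthases to pair, stood at 350 and 323 in the control libraries and 116, 73.4 and 180 in maternal BSp (-1.54 ± 0.43, limma adjusted p = 0.407). Its partner in pairing Atp5l, the g subunit, stood at 604 and 519 against 351, 186 and 517 (-0.79 ± 0.47). Both were without overlap, though for Atp5l maternal BSp replicate 3 came close to control replicate 2. Atp5e, the epsilon subunit of the central stalk and the highest of the complex per kb (1015 per kb), stood at 567 and 461 against 363, 88.7 and 657, and the third maternal BSp library lay above both controls. The catalytic head genes Atp5a1 and Atp5b had fold changes of -0.14 and 0.15. Atp5j, the coupling factor 6 of the stalk, stood at 254 and 250 against 510, 231 and 469 (0.59 ± 0.43), higher in 2 of 3 maternal BSp libraries.

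Subunit c, which forms the rotor ring of the synthase, is made from Atp5g1, Atp5g2 and Atp5g3, whose products differ in the import signal and give the same mature protein. Atp5g3 supplied 63.9% and 58.3% of subunit c reads in the control libraries and 64.5%, 66.7% and 66.8% in maternal BSp. The share of Atp5g1 was 33.7% and 37.4% against 30.7%, 27.6% and 29.2%, so that all maternal BSp libraries lay below both controls, and that of Atp5g2 was 2.43% and 4.23% against 4.79%, 5.72% and 3.98%. In normalised reads, Atp5g1 stood at 263 and 311 against 126, 87.2 and 277 (log2 fold change -0.97), Atp5g3 at 499 and 484 against 264, 211 and 634 (-0.58) and Atp5g2 at 19 and 35.1 against 19.6, 18.1 and 37.7 (-0.12). The direction of Atp5g2 turned with the processing, with a log2 fold change of 0.31 without control replicate 2. Relative to the mean of Atp5a1 and Atp5b, the 3 genes together stood at 1.38 and 1.10 in the control libraries and 1.04, 0.418 and 1.04 in maternal BSp. The subunit c transcripts are 441 to 714 bases long, against 2471 for Atp5a1 and 1916 for Atp5b. The part of length in this ratio was not tested.

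**Figure D3:**
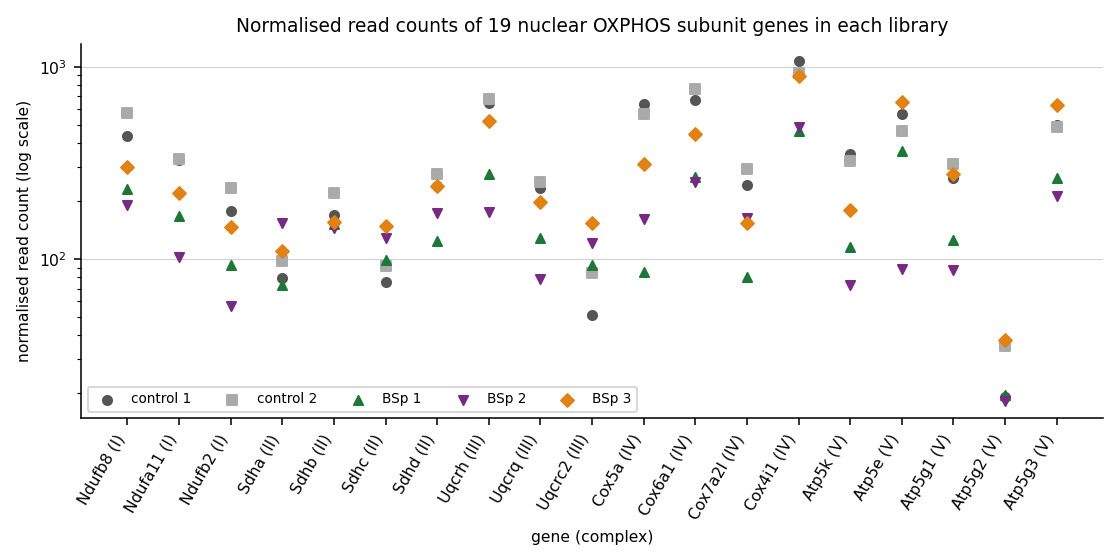
Normalised read counts (vertical axis, log scale) of 19 genes in each of the 5 libraries, with the complex in brackets. For Ndufb8, Cox5a, Cox6a1 and Atp5k all maternal BSp points lie below both controls, for Sdhc and Uqcrc2 above, and for Uqcrh, Cox4i1 and Atp5k maternal BSp replicate 3 is the closest of its group to the controls.

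The order of the genes by level was kept across libraries. Levels per kb of transcript ran from 12.4 for Atp5sl to 1324 for Ndufa4, a 107-fold range, with medians of 184 in complex I, 91.2 in complex II, 280.0 in complex III, 570 in complex IV and 386 in complex V. Spearman's rho of the per-kb levels between libraries, over the 77 genes, was 0.843 to 0.980, highest between the controls. All libraries were divided by the same transcript lengths, which by itself raises rho.

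The 13 subunit genes of the mitochondrial genome did not follow the nuclear ones. Of the 13, 12 had a log2 fold change above 0 (92.3%, against 63.2% of all tested genes), with a median of 1.23, and 2 lay higher without overlap (15.4%, against 23.8% of all genes). These 2 were mt-Co1, the catalytic subunit of complex IV, with 3992 and 4163 in the control libraries and 27115, 8217 and 19202 in maternal BSp (log2 fold change 1.99), and mt-Atp8 of complex V, with 92.0 and 79.3 against 1550, 297 and 1071 (3.19). Every maternal BSp library exceeded the controls for both, although mt-Atp8 shares bases with mt-Atp6. Limma adjusted p for these 2 genes was 0.407. The complex III subunit mt-Cytb stood at 1552 and 1549 against 9864, 1506 and 6583 (1.57), and in complex I mt-Nd1 stood at 1529 and 1647 against 8269, 1432 and 6169 (1.40). In both, maternal BSp replicate 2 lay below the controls and the other two libraries above them. The complex I subunit mt-Nd4l, which shares bases with mt-Nd4, stood at 50 and 18.7 against 202, 45.3 and 79.3 (1.52), with overlap. The ratio of summed mitochondrial to summed nuclear subunit reads, which no scaling of a library can alter, was 1.38 and 1.25 in the control libraries and 9.33, 2.43 and 4.52 in maternal BSp replicates 1, 2 and 3. In complex IV it was 2.94 and 2.84 against 23.9, 8.23 and 11.7. In complex I it was 1.32 and 0.918 against 5.92, 1.42 and 2.87. In complexes III and V too, each maternal BSp library lay above both controls. Maternal BSp replicate 2 differed from the controls through its low nuclear sum (10964, against 20725 and 22676) with a mitochondrial sum of 26628 that lay below theirs (28595 and 28305). Replicate 3 differed through its mitochondrial sum of 99974, with a nuclear sum of 22124, and replicate 1 through both (128361 and 13760). In maternal BSp replicate 2, nuclear members under 700 bases summed to 3910, against 10804 and 11875 in the controls. Those of 700 to under 1200 bases summed to 3144, against 5991 and 6110. Those of 1200 bases or more summed to 3910, against 3930 and 4690. The part of transcript length in these sums and ratios was not tested. An exact permutation test of 2 against 3 libraries cannot go below p = 0.1, so none was made of these ratios.

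**Figure D4:**
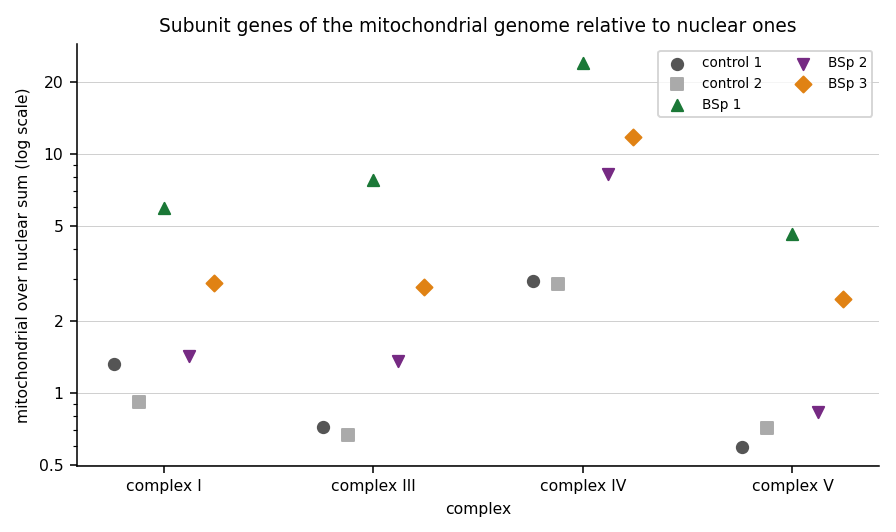
Summed reads of the mitochondrial-genome subunit genes over those of the nuclear subunit genes (vertical axis, log scale) for the 4 complexes that hold both, in each library. The 3 maternal BSp points lie above both controls in every complex, by a small margin for maternal BSp replicate 2 in complexes I and V.

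The fold changes went with transcript length. The 77 genes are short, with a median transcript of 758 bases (315 to 3171), against 2852 bases over the 9351 tested genes with a length. All 33 members under 700 bases had a log2 fold change below 0 (median -0.79). Among members of 700 to under 1200 bases 19 of 23 did (-0.57), and among those of 1200 bases or more 13 of 21 did (-0.15). The same length classes over all tested genes had medians of -0.51, -0.35 and 0.27. Lower values without overlap were found in 42.4%, 39.1% and 23.8% of the members in these classes. The shares over all tested genes of each class were 31.25%, 30.1% and 6.34%. Lower values with an unadjusted limma p under 0.05 were found in 30.3%, 4.35% and 0.0% of members, against 20.1%, 11.7% and 1.69%. Spearman's rho of fold change with length was 0.58 over the members and 0.35 over all tested genes, as a description over genes of the same libraries. By library, rho over the members was 0.75 in maternal BSp replicate 2, 0.33 in replicate 1 and 0.26 in replicate 3. For the difference between the controls, replicate 2 minus replicate 1, it was 0.33 as well over the members and -0.23 over all tested genes. With the trend on length and GC content over all genes taken out, the members' median was -0.04 against 0.18 over all genes, with 42 lower and 35 higher. Medians of complexes I, III and IV then stood at -0.09, -0.08 and 0.06. The part of length in the lower values was not tested further than this.

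**Figure D5:**
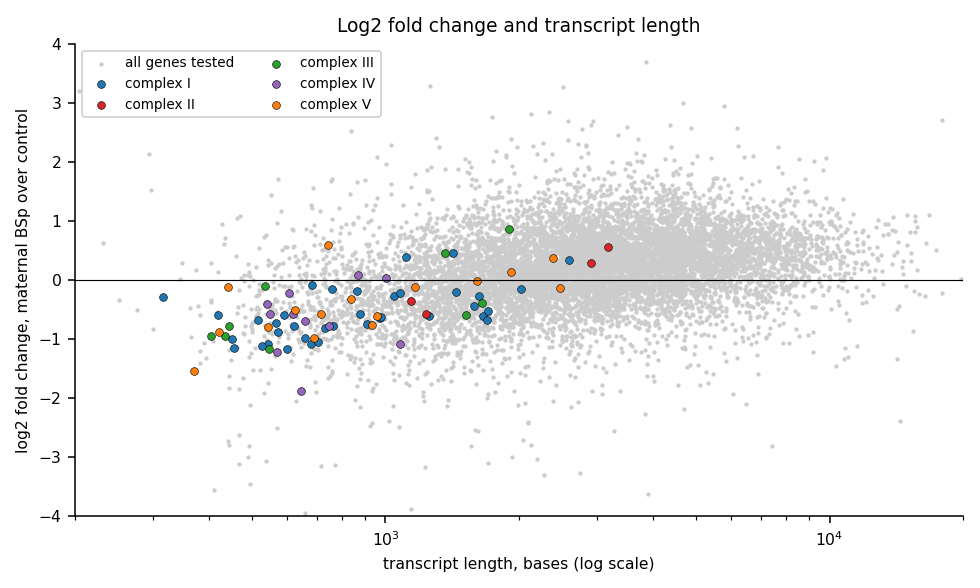
Log2 fold change, maternal BSp relative to control (vertical axis), against transcript length in bases (log scale) for all tested genes with a length (grey) and the 77 nuclear OXPHOS subunit genes (coloured by complex). Of the grey points, 10 fall outside the axes. The coloured points lie at the short end, and all those under 700 bases lie below 0.

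Near-identical copies could take reads from some of these genes. A copy annotated as a pseudogene of any class, with at least 95% identity over at least 150 bases, was found for 22 of the 77 genes. Of these, 18 had copies in the table. The copies together stood at 61.0 and 21.5 normalised reads in the control libraries and 10.9, 0.862 and 6.74 in maternal BSp, which is 0.294% or less of the members' sum. Atp5g2 is the exception, since its copies (36.0 and 13.3 against 6.41, 0.251 and 3.61) exceeded the gene itself in control replicate 1, so its values are uncertain. The 55 genes without such a copy had a median of -0.58 with 46 lower. Exons of 26 genes share at least 50 bases with another gene, and the strand setting of the counting is not known. Among the named genes these include Cox5a (269 bases with Gm26631 on the other strand), Uqcrc2 (504 bases with Pdzd9 on the other strand) and Ndufb8 (134 bases with Gm20538 on its own strand). Atp5j shares 397 bases with Gabpa on the other strand.

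In the authors' deposited table, which lists genes by unadjusted p-values, 12 of the 77 genes appear for the control and BSp contrast. All 12 have the higher mean in control in the authors' deposited table, as do 439 of the tested genes (4.45%). Besides the 11 genes at an unadjusted p under 0.05 in limma, the authors' deposited table lists Ndufb11. Atp5k, Cox6a1 and Cox5a have the smallest p-values among the 12 in the authors' deposited table, at 0.00235, 0.00343 and 0.00439.

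Genes that build or regulate the complexes were taken from fixed lists, and limma called none of them. Of 46 assembly factors, 32 were tested, of which 13 had lower and 19 higher mean log2 values in maternal BSp (59.4% higher, against 63.2% of all tested genes), with a median of 0.15 against 0.21. Without overlap, 6 were lower (18.8%, against 9.21%) and 7 higher (21.9%, against 23.8%). Cox17, the copper chaperone of complex IV, stood at 235 and 229 in the control libraries and 135, 72.9 and 105 in maternal BSp (-1.19), and Coa3, which works on mt-Co1, at 132 and 163 against 55.9, 61.3 and 87.0 (-1.12). Cox20, a chaperone of mt-Co2, stood at 26.0 and 33.4 against 106, 41.6 and 58.4 (1.08), and the complex I assembly factor Acad9 at 28.0 and 22.4 against 37.6, 50.1 and 78.7 (1.05). None of these 4 overlapped between groups, and the first pair lay lower in maternal BSp and the second pair higher. Atpif1, the inhibitor of the ATP synthase, stood at 428 and 508 against 253, 216 and 334 (-0.82).

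Regulators of mitochondrial biogenesis lay the other way from the subunit genes. Of the 12 tested from a list of 15, 11 had higher mean log2 values in maternal BSp, against 63.2% of all tested genes. Their median was 0.53, against 0.21 over all genes, and 6 of them were without overlap (against 23.8% of all genes). The part of transcript length in this difference from the subunit genes was not tested. Gabpa, the DNA-binding part of GABP, stood at 37.0 and 41.6 in the control libraries and 96.8, 113 and 60.7 in maternal BSp (1.14). Polrmt, the mitochondrial RNA polymerase, stood at 9.0 and 18.97 against 28.5, 29.6 and 34.9 (1.17), and Tfam, which packages mitochondrial DNA and starts its transcription, at 34 and 42.7 against 54.3, 55.4 and 86.6 (0.73). In all 3 genes each maternal BSp library exceeded both controls, and limma adjusted p-values were 0.407 to 0.473. Of the 13 enzymes of the tricarboxylic acid cycle, 5 had lower (38.5%, against 36.8% of all tested genes) and 8 higher mean log2 values (median 0.13). Idh3b, a subunit of the NAD-linked isocitrate dehydrogenase, stood at 42.0 and 81.5 against 90.7, 89.6 and 130.0 (0.79), above both controls in each maternal BSp library. Of 8 tissue-specific isoforms 3 were tested, and Ndufa4l2, a form of Ndufa4 known to be induced by hypoxia, stood at 39.0 and 26.6 against 3.79, 30.0 and 3.93 (-1.88), with overlap.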

How the data were processed

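RNA of integrity number 7.0 or more was made into strand-specific mRNA libraries, per the labels' protocols. The submitters' processing notes name STAR, DESeq, FastQC, cutadapt and Trim Galore, and the builds GRCm38 and mm10. The sources used here do not give their versions, the counting tool, its strand setting or the annotation. The deposited column of control replicate 1 holds whole counts, and the other deposited columns hold a signal of reads scaled to its total. Whole reads were recovered for 100.0% of values (tolerance 0.1 read). The second table gives the authors' group means as signal and unadjusted p-values, per the file headers.

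Genes with a mean of at least 10 (9870) were tested on log2(value + 1) with limma-trend (limma 3.58.1, R 4.3.3) without covariates. P-values were adjusted by Benjamini-Hochberg and called under 0.05. Fold changes on this scale are understated for low genes. The step was tested on simulated data. Alternatives were pseudocounts, filters, scalings, removal of a length and GC trend, each library left out, replicate blocks, array weights, and edgeR 4.0.16 and DESeq2 1.42.0 on recovered reads. Depths were 1106813 and 3909583 reads in the control libraries and 8459029, 61663199 and 13796272 in maternal BSp, so 1 read is worth 1.0 to 0.0179 normalised reads. Such precision covers counting error only.

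Positions, lengths and GC content come from GENCODE M21 on GRCm38, with the median-length principal coding transcript. Copies were found with blastn 2.17.0. Genes were named as the 3 of smallest unadjusted p and the 2 of highest level per kb in each complex, all of complex II and subunit c, those nearest the limit of 10, and up to 3 of smallest p from each list. Other genes were named after their values were seen: Ndufb6, Ndufa7, Ndufs5, Ndufab1, Ndufa12, Ndufs1, Ndufv2, Ndufb11, Uqcrc1, Uqcrfs1, Cyc1, Atp5a1, Atp5b, Atp5j, Cox5b, Cox7b, Ndufb9, Uqcr10 and those at the ends of a range. Of these list genes, those with an unadjusted p under 0.1 are printed, a limit set after seeing values, and marker lists are given mainly as sums. The members and lists were chosen with earlier results of these data known.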

Additional observations from a re-analysis of the deposited data

How the results depend on the processing

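The direction of the nuclear OXPHOS genes held on every scaling tried. All genes had a median log2 fold change of 0.08 with upper quartile scaling, 0.00 with median-of-ratios and 0.01 with TMM, and the members then stood at -0.71, -0.79 and -0.78. With each library left out in turn, the members' median ran from -0.81 to -0.29, complex I from -0.85 to -0.31, complex II from -0.20 to 0.13, complex III from -1.01 to -0.33, complex IV from -0.96 to -0.30 and complex V from -0.58 to -0.20. The lower end came without maternal BSp replicate 3 for the members and for complexes I, III, IV and V. Over the same alternatives 55 to 69 members were lower, and 29 to 54 were lower without overlap (28 with all libraries). As shares, the latter were 37.7% to 70.1% of members (36.4% with all libraries). Of all tested genes, 11.2% to 21.3% were lower without overlap with a library left out (9.21% with all libraries). The 2 counts of members were added after the data were seen. Limma called 0 members and 0 to 1 genes, the 1 without maternal BSp replicate 3. With the length and GC trend removed, the medians moved to -0.0415 (members), -0.0921 (complex I), -0.0759 (complex III) and 0.0646 (complex IV), 42 members were lower, and Sdhb (0.11), Uqcr11 (0.0867) and Atp5g2 (0.72) reversed.

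Array weights called 699 genes (7.08%), 277 of them lower (2.81%), and 9 members, all lower: Atp5k, Cox5a, Cox6a1, Cox7a2l, Ndufa7, Ndufb8, Ndufb9, Uqcr10 and Uqcrh. The controls were weighted at 1.48 each, and maternal BSp replicates 1, 2 and 3 at 2.97, 0.34 and 0.46, and Sdha reversed (-0.0891). DESeq2 called 100 genes and 0 members. The replicate numbers of the labels differ between titles and descriptions, and deviations of same-numbered libraries correlated at 0.09 and -0.09 by description and 0.09 and 0.16 by title, so they do not establish pairs. A replicate block by description called 23 genes and 0 members, and a block by title called 0 genes. Atp5g2 reversed under the title block (0.0174), and with each library left out it ran from -0.54 to 0.31, above 0 when control replicate 2 (0.31) or maternal BSp replicates 1 (0.02) or 2 (0.07) were dropped. Of 756 pairs of a single gene and an alternative, 731 kept direction and side of the threshold, 17 passed it and 8 reversed. Where not named, the cause was not tested. Control replicate 1 limits depth, since 1 read there is worth 1.0.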
